A study of Homo sapiens with 16 samples.

Results

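Interleukins are secreted proteins through which immune and tissue cells signal to each other, and the accessibility of their genes and of their receptor genes was described here in glioblastoma cells treated with a DNA repair decoy, a histone deacetylase inhibitor or both. The members are the protein-coding genes whose symbol is IL followed by a digit, 85 of the 19974 protein-coding genes on chromosomes 1 to 22 and X of hg38. They were chosen by symbol. The group itself was taken up because earlier work on these lists had already shown peaks that differed with belinostat at some members, IL24 and IL36G among them, so the counts by treatment are a description and no test was made over them. By the known role of the product, 39 members encode ligands, 40 encode receptor chains, 5 encode inhibitors (IL1RN, IL36RN, IL1F10, IL18BP and the decoy receptor IL22RA2) and 1, IL4I1, encodes an amino acid oxidase induced by IL-4.

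Open chromatin was measured by NicE-seq in U87, an established human glioblastoma line. In this assay the enzyme Nt.CviPII nicks accessible DNA in fixed nuclei, and DNA polymerase I fills in biotinylated nucleotides so that open DNA can be captured and sequenced. The 16 libraries fall into 4 groups of 4: vehicle (DMSO), belinostat with no AsiDNA, AsiDNA with DMSO, and the combination of AsiDNA and belinostat. Belinostat, an inhibitor of histone deacetylases, was given at 1 µM for 24 h. AsiDNA is a short double-stranded DNA that mimics a break and occupies repair proteins. The labels give neither a dose nor a time for it. Every sample is labelled U87, but the protocols name MTU87 and LTAU87 cells, so it is open in the labels how the AsiDNA groups were exposed and whether they are a line of their own. The 4 libraries of a group share 1 peak list, so values have no spread between replicates and no p-value can be given. Intervals are Wilson 95% intervals, which cover counting error only, and the read depth of the libraries is unknown. The lists held 130318 to 138937 peaks, which merged into 183659 regions wherever peaks of any list overlapped by at least 1 bp.

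Interleukin signalling is built from a few receptor families. IL-1 family ligands bind receptors with a cytoplasmic Toll-like domain and signal through MYD88 and NF-kappa-B, IL-6 and IL-12 family ligands use IL6ST (gp130) or related chains with Janus kinases and STAT factors, IL-10 family ligands use paired class II receptors, and several lymphocyte growth factors share the common gamma chain, IL2RG. Most ligand genes are silent in resting cells and are switched on by factors such as NF-kappa-B, AP-1 and STAT3, whereas many receptor genes are expressed constitutively. Glioblastoma cells are known to make IL-6 and to respond to IL-1.

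Some start sequences with motif matches are shown first, mostly of ligands, with IL6ST as the only receptor. They are the 250 bases before the listed start, 5′ to 3′ on the gene's strand, from RefSeq (GRCh38.p14), with matches in capitals to the AP-1 motif TGANTCA, the CCAAT box, the TATA box TATAAA or the kappa-B consensus on either strand. A match is a description of the letters and does not show that a factor binds. IL1A, whose start peak was the highest among members by its lowest percentile over the lists (chr2:112784401-112784650, minus strand), has 2 AP-1 matches and a CCAAT match. IL17B (chr5:149404203-149404452, minus strand) has 2 AP-1 matches, IL11 (chr19:55370464-55370713, minus strand) has 1 with a CCAAT match, and IL1RN, the IL-1 receptor antagonist, has 1 (chr2:113117721-113117970, plus strand). These 4 starts had a peak in every list. The receptors IL6R, IL15RA and IL22RA1 also had an AP-1 match at an open start and are not printed.
IL1A: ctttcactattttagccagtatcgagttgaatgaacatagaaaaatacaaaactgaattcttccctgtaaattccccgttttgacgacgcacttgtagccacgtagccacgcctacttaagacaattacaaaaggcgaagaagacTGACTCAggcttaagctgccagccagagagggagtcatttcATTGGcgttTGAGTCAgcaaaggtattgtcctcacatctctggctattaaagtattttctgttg
IL17B: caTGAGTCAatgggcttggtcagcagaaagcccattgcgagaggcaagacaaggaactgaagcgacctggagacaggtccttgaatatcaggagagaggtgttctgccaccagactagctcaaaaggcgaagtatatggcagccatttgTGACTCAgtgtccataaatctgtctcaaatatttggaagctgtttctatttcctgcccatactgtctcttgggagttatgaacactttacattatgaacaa
IL11: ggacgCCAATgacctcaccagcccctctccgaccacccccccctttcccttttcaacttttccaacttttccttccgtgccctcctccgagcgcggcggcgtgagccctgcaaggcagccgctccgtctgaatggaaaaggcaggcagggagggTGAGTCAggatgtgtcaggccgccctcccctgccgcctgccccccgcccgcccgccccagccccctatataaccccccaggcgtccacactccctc
IL1RN: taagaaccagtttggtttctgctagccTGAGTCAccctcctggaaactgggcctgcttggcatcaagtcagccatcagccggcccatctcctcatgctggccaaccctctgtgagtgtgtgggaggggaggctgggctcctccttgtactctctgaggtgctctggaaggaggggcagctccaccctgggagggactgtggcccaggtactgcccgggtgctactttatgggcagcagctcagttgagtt

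Another 3 starts show the kappa-B consensus. IL6 (chr7:22726950-22727199, plus strand), the ligand of IL6R, and IL6ST (chr5:55994964-55995213, minus strand), the signal-transducing chain that IL-6, IL-11 and IL-27 share, had a peak in every list, and both also hold CCAAT matches. IL32 (chr16:3065153-3065402, plus strand), an inflammatory ligand, had a peak in every list but vehicle, and the 11 bases in capitals match the kappa-B consensus on both strands. The IL6 sequence has 47.6% G or C, and that of IL6ST has 73.6%.
IL6: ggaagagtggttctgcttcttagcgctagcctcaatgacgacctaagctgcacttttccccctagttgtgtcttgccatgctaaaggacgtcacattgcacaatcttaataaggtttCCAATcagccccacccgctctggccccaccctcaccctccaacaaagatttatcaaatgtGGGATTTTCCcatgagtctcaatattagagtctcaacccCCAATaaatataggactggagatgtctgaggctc
IL6ST: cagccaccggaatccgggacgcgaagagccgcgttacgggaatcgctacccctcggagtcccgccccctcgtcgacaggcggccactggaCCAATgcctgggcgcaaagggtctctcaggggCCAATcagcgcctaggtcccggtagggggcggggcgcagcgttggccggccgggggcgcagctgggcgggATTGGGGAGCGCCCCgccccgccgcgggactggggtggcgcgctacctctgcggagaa
IL32: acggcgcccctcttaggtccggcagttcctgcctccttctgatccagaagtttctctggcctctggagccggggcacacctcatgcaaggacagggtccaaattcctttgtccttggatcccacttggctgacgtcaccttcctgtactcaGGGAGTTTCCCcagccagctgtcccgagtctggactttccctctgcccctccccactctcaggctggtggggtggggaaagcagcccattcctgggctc

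The table of starts used here held 108 starts of 69 members, each with 300 bases (250 before the start and 50 after it). A peak of every list overlapped 28 of these sequences (25.9%), against 12147 of 22132 (54.9%) over all protein-coding starts. The 9 open ligand starts had a median of 42.3% G or C and 24 sites for the nicking enzyme (CCA, CCG or CCT on either strand). The 17 open receptor starts had 69.0% and 49, and all open protein-coding starts had 65.7% and 45. Ligand starts without a peak in any list had 25.5 nicking sites and receptor starts without one had 33. The ligand medians rest on 9 starts of 8 genes, with IL1A counted at 2 starts, and those of IL11 (68.7% and 50 sites) and IL12A (64% and 44) were not low. The part of the enzyme's sites in the number of open starts was not tested.

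The AP-1 motif was found in 9 of the 28 open member starts (32.1%), which overlap in part and belong to 7 of 24 genes (IL1A, IL1RN, IL6R, IL11, IL15RA, IL17B and IL22RA1). It was found in 8 of the 64 member starts without a peak (12.5%), which belong to 8 of 47 genes, with IL15RA in both classes. Over all protein-coding starts it was in 653 of the 12147 open ones (5.38%), against 584 of 8470 without a peak (6.89%). The STAT motif TTCNNNGAA was in 4 of the 28 (14.3%, against 6.1% of all open starts) and the kappa-B consensus in 6 (21.4%, against 13.4%). Among the 16 member starts with a peak in some lists only, the AP-1 motif was in 1 (6.25%) and the kappa-B consensus in 5 (31.2%). The TATA box was in 1 open member start, an IL1A start, and in 14 of the 64 member starts without a peak (21.9%, against 15.6% of all starts without a peak).

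Gene starts were then scored through a window of 1000 bp on each side. For 16 members without a listed start, either end of the gene was used. A start peak was found in every list at 39 of 85 members (45.9%, interval 35.7 to 56.4), whereas the share over all protein-coding genes was 63.5%. No list had a start peak at 37 members (43.5%, against 29.3%), and some lists did at 9 (10.6%, against 7.25%). Start peaks in every list were present at 16 of 39 ligands (41.0%, 27.1 to 56.6) and at 21 of 40 receptors (52.5%, 37.5 to 67.1), intervals that overlap. Among the inhibitors only IL1RN had one, and IL4I1 had one as well, in a region that also touches listed starts of NUP62 and ATF5.

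**Figure D1:**
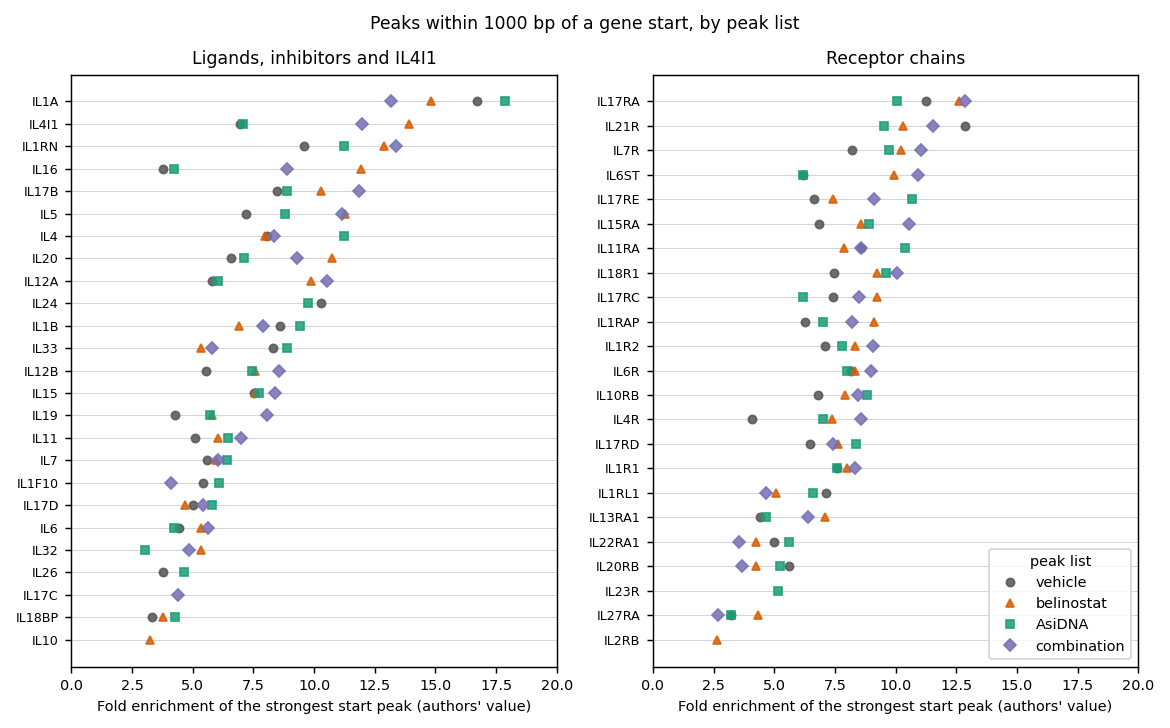
Fold enrichment over local background, as the authors' peak caller gave it, of the strongest peak within 1000 bp of a start, for each member with a start peak in any list. Each point is 1 peak list, and a missing point means no peak there. Ligands, inhibitors and IL4I1 are on the left and receptor chains on the right. IL1A lies highest in the vehicle and AsiDNA lists, and IL16, IL4I1, IL12A and IL6ST have their belinostat and combination points well to the right of the others.

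Of the ligands, IL1A, an alarmin of the IL-1 family, had start peak folds of 16.7 in vehicle, 14.8 in belinostat, 17.8 in AsiDNA and 13.2 in the combination. Their percentiles among the folds of their own list were 99.4, 94.3, 99.3 and 89.5. Fold enrichment is not scaled between lists, so a higher fold in one list is no change in itself, and a direction is read only from percentiles or ranks within a list. Over all protein-coding genes with a start peak in every list, the median start percentiles were 72.4, 80.2, 73.4 and 79.6 in the same order. Starts in general thus stood higher in both lists with belinostat. At IL1A the percentile was lower in each list with belinostat. The start of IL1B, the other agonist made by inflammasome-competent cells, had folds of 8.58, 6.89, 9.41 and 7.88 in the same order, and that of IL33, a nuclear alarmin, 8.30, 5.33, 8.87 and 5.77. The percentiles of IL1B (77.9, 57.5, 80.3 and 63.7) and IL33 (75.8, 41.0, 76.9 and 43.9) were also lower in each list with belinostat. No start peak was found for the other 5 ligands of the IL-1 family (IL18, IL36A, IL36B, IL36G and IL37).

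The IL-6 and IL-12 group was open at 4 of 7 starts. IL6, a pyrogenic and growth-promoting cytokine of glioma, had start folds of 4.45, 5.32, 4.22 and 5.62 in vehicle, belinostat, AsiDNA and combination, at percentiles 29.7, 40.4, 26.0 and 42.3. IL12A, a subunit of IL-12, had 5.77, 9.86, 6.04 and 10.5 for the strongest peak within 1000 bp, at percentiles 50.2, 77.7, 51.5 and 79.4, higher in both lists with belinostat. The medians over all protein-coding genes given above were higher in both as well. The peak over the 300 bases at its start had 5.773, 5.755, 5.881 and 5.212. IL11 and IL12B were open too, and IL23A, IL27 and IL31 had no start peak. Among the lymphocyte growth factors, the starts of IL4, IL7 and IL15 were open in every list, and those of IL2, IL9, IL13 and IL21 in none. The start peak of IL5, a growth factor of eosinophils, had folds of 7.20, 11.3, 8.80 and 11.2 (percentiles 66.3, 84.1, 76.4 and 82.3), but it is also within 1000 bp of a listed start or end of the neighbouring repair gene RAD50 and cannot be given to IL5 alone. In the IL-10 family IL19 and IL20 had a start peak in every list and IL22 in none. In the IL-17 family IL17B and IL17D had one in every list, and IL17A, IL17F and IL25 in none. IL16 had one in every list, and IL3 and IL34, a ligand of the CSF1 receptor, in none. Over the 300 bases at listed starts, no list had a peak at IL4, IL16 or IL19. There IL20 had one in belinostat (10.7) only, and IL17D in vehicle (4.99) and AsiDNA (4.72) only.

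Of the receptors, IL6ST had start folds of 6.19 in vehicle, 9.95 in belinostat, 6.17 in AsiDNA and 10.9 in the combination. Its percentiles were 55.6, 78.1, 53.3 and 81.2, higher in both lists with belinostat, as were the medians over all protein-coding genes. IL6R, which binds IL-6 itself, had folds of 8.17, 8.34, 7.98 and 8.97 at percentiles 74.7, 68.8, 70.5 and 70.8. IL1R1, the signalling IL-1 receptor, had 7.59, 8.01, 7.59 and 8.33 at percentiles 70.1, 66.6, 67.2 and 66.9. At neither did the percentiles separate the lists by belinostat in the direction of the folds. The co-receptor IL1RAP had folds of 6.28, 9.11, 7.02 and 8.19 at percentiles 56.4, 73.8, 62.3 and 65.8. IL17RA, the chain shared by IL-17 receptors, had the highest receptor percentile in the vehicle list after IL21R, with folds of 11.2, 12.6, 10.1 and 12.9 at percentiles 91.3, 88.8, 83.9 and 88.6. Both chains of the IL-6 receptor and both of the IL-1 receptor had a start peak in every list. For IL1R1 the folds are those of the listed start at chr2:102104604. The start sequences at its further listed starts (chr2:102141791, chr2:102142306 and chr2:102142746) had no peak in any list. The other open receptor starts in the IL-1 family were those of IL1R2, IL1RL1 and IL18R1. In the IL-17 family they were those of IL17RC, IL17RD and IL17RE, and in the IL-10 family IL10RB, IL20RB and IL22RA1. The rest were those of IL11RA, IL27RA, IL4R, IL7R, IL13RA1, IL15RA and IL21R. Over the start sequences alone, no list had a peak at IL17RE or IL27RA. There IL4R had one in the combination (2.42) only, and IL7R in vehicle (4.16) and AsiDNA (3.47) only. IL1R2 had one there in vehicle (3.95) and the combination (2.99) only, and IL1RL1 in every list but belinostat.

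The 17 receptors without a start peak in any list include IL2RA and IL2RG of the IL-2 receptor, IL12RB1 and IL12RB2 of the IL-12 receptor, IL10RA, IL9R, IL18RAP, and IL3RA and IL5RA, which pair with the common beta chain. The others were IL1RL2, IL1RAPL1, IL1RAPL2, IL17RB, IL17REL, IL20RA, IL31RA and IL13RA2. IL13RA2, a decoy receptor known as a glioma antigen, had its nearest region 27.3 kb away, which had a peak in the belinostat and AsiDNA lists. IL10RA and IL5RA were the other members without any region within 10 kb, with the nearest at 11.4 and 16.1 kb. Among receptors with a start peak in every list, IL27RA had the lowest start folds in vehicle (3.22), AsiDNA (3.23) and the combination (2.66). In belinostat it had 4.33, above IL20RB (4.26) and IL22RA1 (4.26).

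The U87 label was set beside marker genes. A start peak in every list was present at 63.5% of all protein-coding genes. It was present at 7 of 8 neural and glial markers, with NES, SOX2, OLIG2 and VIM among them. GFAP had none, and GFAP, OLIG2 and S100B were scored by gene ends. Of 10 haematopoietic markers 5 had such a peak (CD3E, CD4, CD8A, CD68 and SPI1), of which CD3E, CD4 and SPI1 were scored by gene ends. None of 4 epithelial markers had one, and EPCAM, KRT14 and CDH1 among them were scored by gene ends. The leukocyte gene PTPRC had none, and CD14 had a start peak in belinostat only (fold 2.31). A start peak at a blood cell marker thus occurred in these cells. No expression values are given here, so such a peak cannot be read as use of the gene.

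The signalling genes downstream of the receptors were set beside the members. Of 39 pathway genes not named IL, 31 (79.5%, 64.5 to 89.2, against 63.5% of all protein-coding genes) had a start peak in every list and 6 had none, and no test of the difference was made. All 7 STAT genes and all 6 NF-kappa-B genes were open in every list. STAT3, the main transducer of IL-6, had folds of 9.52, 11.8, 10.5 and 11.2 at percentiles 83.8, 86.1, 86.1 and 82.4. RELA, the p65 subunit, had 9.04, 14.6, 9.34 and 15.3 at percentiles 80.9, 93.8, 79.9 and 94.7. JAK1, JAK2 and TYK2 were open and JAK3, the kinase of common gamma receptors, was not. At MYD88, the adaptor of IL-1 receptors, a region over the start itself (chr3:38138414-38138843) had a peak in the lists without belinostat only, with folds of 4.05 in vehicle and 3.24 in AsiDNA. A stronger region 928 bp from that start was held by every list, with folds of 9.49, 13.7, 11.1 and 14.8. EBI3, the shared subunit of IL-27 and IL-35, had a start peak in every list but AsiDNA, with folds of 2.96, 5.88 and 6.15. Of the partner receptors, OSMR and LIFR were open, and CSF2RB, the common beta chain, had no start peak.

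At 9 members some lists only had a start peak, and at 3 of them the peaks lay at the border of the window. IL24, an IL-10 family ligand, had a start peak with vehicle (fold 10.3) and AsiDNA (9.74) and none within 1000 bp with belinostat or the combination. The region in question (chr1:206898408-206898940) lies 965 bp from the start at its nearer edge, and it holds peaks of all 4 lists with folds of 10.3, 11, 9.74 and 10.6. IL24 was thus open beside its start under every treatment, and what differed was whether the edge of the peak reached the window. IL1F10, whose peak was missing with belinostat, and IL17C, whose peak was called in the combination alone, were also held by every list once merged regions were used.

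The other 6 kept their pattern under that change, but of these IL23R alone kept it under each alternative for the start call. IL23R and IL2RB have no listed start and were scored by gene ends throughout. The alternative of either gene end could therefore not move them. The AsiDNA peak of IL23R also overlaps the span of C1orf141. IL26, an IL-10 family ligand absent from rodents, had a start peak in the lists without belinostat only, with folds of 3.76 in vehicle and 4.65 in AsiDNA, at percentiles 17.4 and 32.0, and no list had one within 500 bp of the start. IL32 had none with vehicle and folds of 5.33 with belinostat, 3.04 with AsiDNA and 4.85 with the combination. IL18BP, a soluble antagonist of IL-18, had folds of 3.33, 3.79 and 4.29 and no peak in the combination. IL23R had a start peak in AsiDNA only (fold 5.17), and IL10 and IL2RB had one in belinostat only (3.25 and 2.64). With either gene end in place of the listed starts, IL10 had one in all 4 lists, and with a window of 2000 bp IL2RB had one in both lists with belinostat. With only peaks of −log10 q of at least 5, IL10 and IL2RB lost their start peak, IL18BP kept it in AsiDNA only and IL32 in both lists with belinostat only.

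Beyond the starts, the gene spans extended by 10 kb on each side held 498 of the 112527 regions found in such windows of all protein-coding genes. At least 1 region was present for 82 of the 85 members. Ligand genes are short, with a median of 7.47 kb, and had a median of 3 regions; receptor genes have a median of 43.9 kb and had 8. Per 100 kb of window the medians over genes were 11.7 for ligands, 10.7 for receptors and 9.18 for all protein-coding genes. Pooled over all windows of a set the densities were 11.6, 5.69 and 8.05, so the receptors were above all genes by the median and below them when pooled. IL1R1 had the most regions (25), followed by IL16 (24) and by IL19 and IL1RAP (17 each). IL1RAPL1 and IL1RAPL2, synaptic relatives of IL1RAP, had 3 and 1. Their windows span 1389 and 1222 kb of the 5152 kb over all receptors, so the pooled receptor density depends heavily on these long genes. Of the 498 regions, 63 lay at a member's start, 273 in a gene body and 162 in the flanks, and 56 were nearer to a protein-coding gene outside the group.

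**Figure D2:**
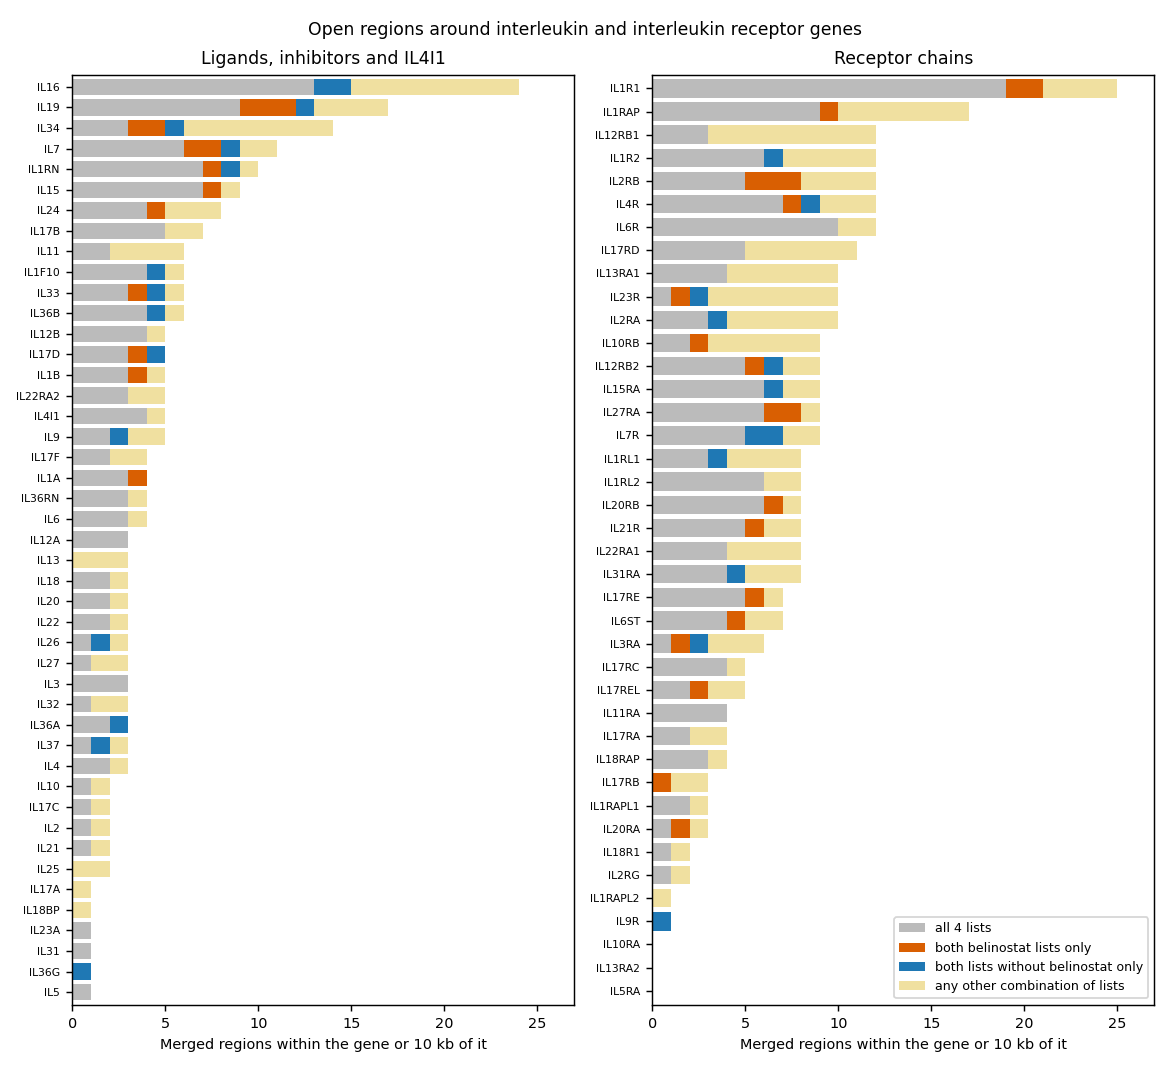
Number of merged regions within the gene or 10 kb of it for each member, split by the peak lists that hold them. Grey marks regions held by all 4 lists, orange those of both belinostat lists only, blue those of both lists without belinostat only and yellow any other combination. IL1R1 and IL16 have the longest bars, with 25 and 24 regions, and IL10RA, IL13RA2 and IL5RA have none.

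In the member windows, 268 of 498 regions (53.8%, 49.4 to 58.1) had a peak in every list, as did 54.5% of regions in all protein-coding windows. Of the 10 with the highest percentiles, 7 lay in receptor genes of the IL-1 and IL-6 families. A region in the body of IL31RA, the receptor of the itch cytokine IL-31 (chr5:55868679-55869351), had folds of 17.0, 22, 18.3 and 19.8 in vehicle, belinostat, AsiDNA and combination, above the 99th percentile of each list. A region 40.2 kb into IL1RL2, the IL-36 receptor (chr2:102227502-102228525), had 16.0, 18.9, 17.0 and 20.4. One in IL18 (chr11:112157275-112157830), whose start had no peak, had 14.5, 20.7, 15.7 and 19.0. Further regions of the top 10 lay in IL1R1 and IL1RAP, with 2 each, and in IL6ST, IL16 and IL17B. All 10 lay in gene bodies and not at starts.

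Belinostat was compared with vehicle, and the combination with AsiDNA, 2 comparisons that share no list. Between vehicle and belinostat 99 member regions were gained (19.9%, against 17.5% of regions in all protein-coding windows) and 55 lost (11%, against 11.8%). Between AsiDNA and the combination 68 were gained (13.7%, against 12.8%) and 75 lost (15.1%, against 14.5%). The balance of these last 2 counts turned with 63 gained and 51 lost at a −log10 q of at least 5, and with 47 and 35 under a margin between present and absent. The regions held by both lists with belinostat and neither other list numbered 34 (6.83%, 4.93 to 9.39, against 6.27%), and those held by both lists without belinostat only numbered 26 (5.22%, 3.59 to 7.54, against 4.86%). Each of these shares is near the background, and the interval around each of the last 2 contains it. Ligand and receptor windows had the same share in both belinostat lists only (13 of 186 and 20 of 286, 6.99% each), and 6.45% and 4.20% in both lists without belinostat only.

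**Figure D3:**
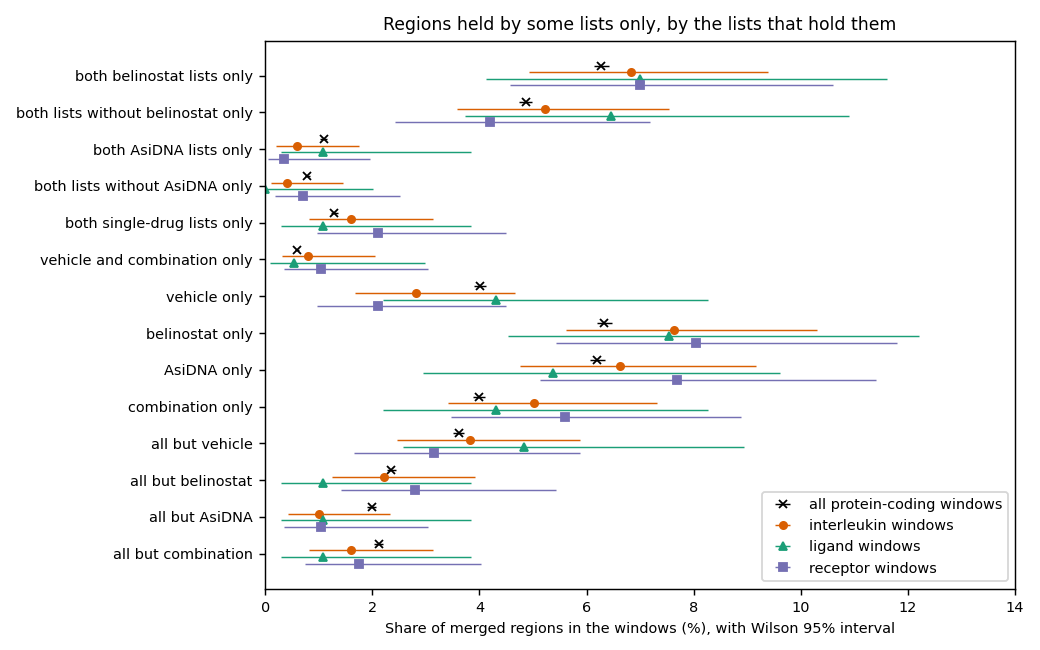
Share of merged regions held by each combination of lists, in percent with the Wilson 95% interval, for all protein-coding windows (crosses), all interleukin windows (circles), ligand windows (triangles) and receptor windows (squares). The share held by all 4 lists, 53.8% for interleukin windows, is left out of the plot. For both belinostat lists only, the interleukin value is 6.83% and the value over all windows 6.27%.

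The region of this kind with the highest percentiles lay in the body of IL7, a lymphocyte survival factor. It had folds of 9.50 in belinostat and 7.16 in the combination and no peak in vehicle or AsiDNA. It also overlaps the span of ZC2HC1A and cannot be given to IL7 alone. The second (chr1:206911087-206911437), with 6.69 and 7.0, lay 13.6 kb beyond the start of IL24 but nearer to FCMR, the IgM receptor gene. IL20RB, a chain of the IL-20 and IL-24 receptors, had such a region 1745 bp from its start (chr3:136955788-136956238, folds 6.22 and 6.17), beside a start region that every list held. Others lay at IL2RB (6.25 and 6.12), IL10RB (7.06 and 5.72, nearer to IFNAR2), IL3RA (5.80 and 5.6), IL1RN (5.29 and 5.32) and IL34 (5.01 and 6.87). None of the 8 highest lay within 1000 bp of a member's start.

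IL2RB, the signalling chain for IL-2 and IL-15, was the receptor with the most regions of this kind and is described for that reason. All of its 12 regions had a peak in the belinostat list, while 6 had one in vehicle, 6 in AsiDNA and 8 in the combination. Over all protein-coding windows those shares were 76.9%, 71.2%, 76.0% and 74.4%. Of these regions 3 were in both lists with belinostat only (6.27% over all protein-coding windows) and 3 in the belinostat list alone (6.33%). As IL2RB was chosen for such regions, nothing is read from these counts. Folds in the belinostat list ran from 2.64 to 8.94.

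The region with the highest percentiles among those held by both lists without belinostat only lay 20.7 kb into IL23R, the receptor of IL-23 (chr1:67159329-67159583), with folds of 8.32 in vehicle and 7.84 in AsiDNA. The only region near IL36G, an epithelial alarmin (chr2:112985176-112985547), had 5.44 and 6.07, and this pattern was known beforehand. Others lay in IL19 (5.05 and 4.92), at 1 start of IL17D (4.99 and 4.72), in the flank of IL37 (4.91 and 4.61), in IL1R2, the decoy receptor of IL-1 (5.46 and 4.48), in IL16 (4.46 and 5.13) and between IL36A and IL36B (4.38 and 4.28). The only region of IL9R, in its flank, had the same pattern with 3.55 and 3.50. The region in IL16 also overlaps the span of STARD5. Regions of both patterns had median widths of 354 and 340 bp, against 626.5 bp for regions in every list and 246.5 bp for regions in a single list. A region spans the peaks of all lists that hold it, so its width grows with their number by construction.

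The genes of the IL-10 family on chromosome 1 show both stable and changing regions side by side. Across IL10, IL19, IL20 and IL24, a stretch of 157 kb with its flanks, 28 regions were found, of which 15 were held by every list. The belinostat list held 25 of the 28 (76.9% of regions over all windows), the combination 21 (74.4%), AsiDNA 20 (76.0%) and vehicle 17 (71.2%). Regions in both lists with belinostat only numbered 4 (6.27% over all windows), and 1 was in both lists without it (4.86%). The stretch holds IL24, at which a difference was known beforehand, and nothing is read from these counts. IL10 itself, an anti-inflammatory cytokine, had a start peak in the belinostat list alone, with a fold of 3.25 at percentile 8.71.

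**Figure D4:**
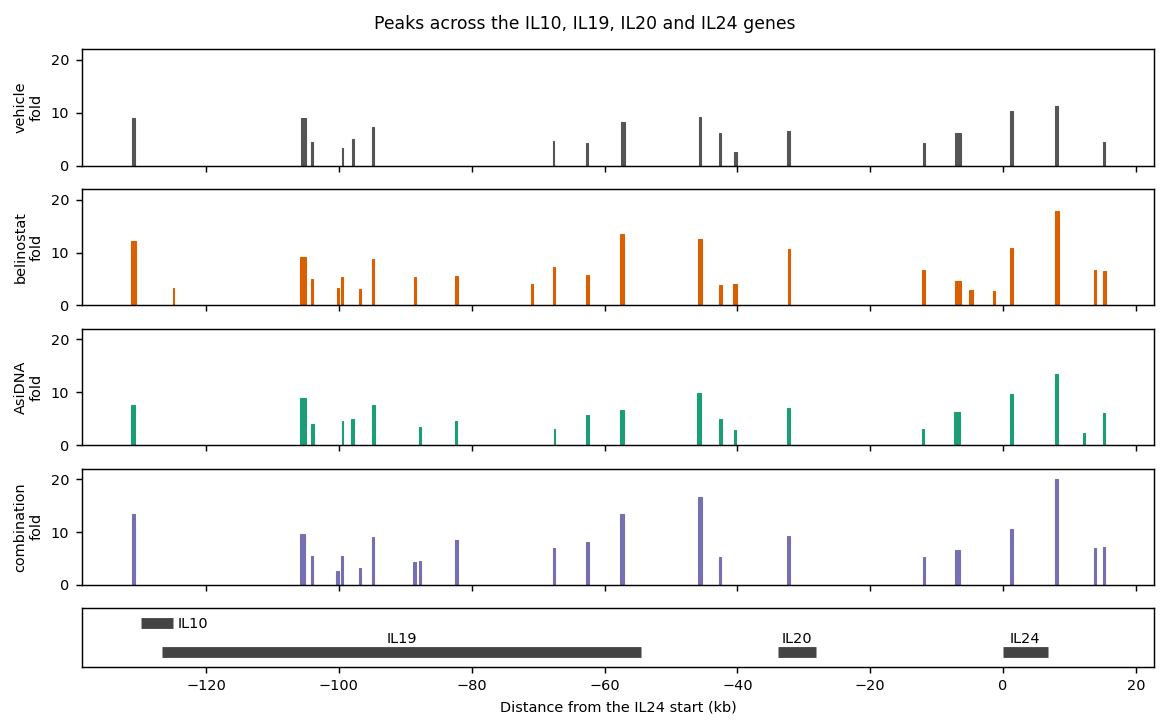
Peaks of each list across IL10, IL19, IL20 and IL24, drawn at their distance in kb from the IL24 start, with the authors' fold enrichment as height and the gene spans in the lowest panel. The tallest peak, 7.8 kb from the IL24 start, has folds of 11.3, 17.9, 13.5 and 20.1 in vehicle, belinostat, AsiDNA and combination and is present in each list. The belinostat panel holds the most peaks.

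Regions held by every list can still differ in strength. Since folds are not scaled between lists, the 94332 regions that every list holds were ranked by fold within each list, over the same set each time; this was chosen after the values had been seen. Of the 268 shared member regions, 99 (36.9%, 31.4 to 42.9) ranked higher in both lists with belinostat than in either list without it, against 35.1% over all protein-coding windows. A lower rank in both was found for 77 (28.7%, 23.6 to 34.4, against 27.2%). The same split by AsiDNA gave 26 higher (9.70%, against 9.8%) and 25 lower (9.33%, against 9.66%). The shares again lie near the background.

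**Figure D5:**
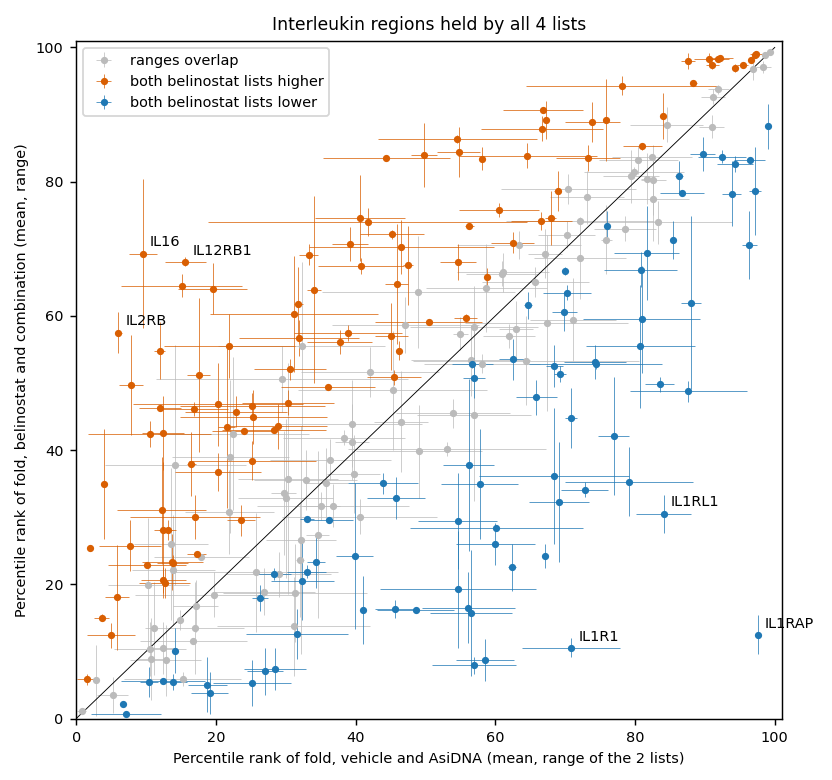
Percentile rank of the fold, over the regions that all 4 lists hold, for the 268 interleukin regions among them. The horizontal position is the mean of vehicle and AsiDNA and the vertical position the mean of belinostat and combination, with bars from the lower to the higher of the 2 lists. Orange points rank higher and blue points lower in both lists with belinostat, and grey points overlap. The region in IL1RAP, at 97.5 and 97.6 without belinostat and 9.58 and 15.4 with it, lies farthest below the diagonal.

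The widest gap of all was in IL1RAP, the co-receptor for IL-1, IL-33 and IL-36. A region of 343 bp in its body, 131 kb from the start (chr3:190644798-190645140), had folds of 14.7 in vehicle, 4.17 in belinostat, 16.0 in AsiDNA and 4.85 in the combination. Its rank was 97.5 and 97.6 in the lists without belinostat and 9.58 and 15.4 in those with it. Another IL1RAP region, 52.1 kb from the start (chr3:190566185-190566915), had folds of 14.1, 16.3, 15.6 and 19.2, which stayed above the 96th percentile of each list. The next widest falls were in IL1R1 (chr2:102137144-102137508, folds 8.00, 4.15, 10.3 and 4.54) and in IL1RL1, the IL-33 receptor (chr2:102312942-102313477, folds 9.84, 6.26, 12.1 and 5.92). Regions in IL16, IL21R and IL36B, in the flank of IL1B and at the start of IL33 followed.

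In the other direction, a region in IL12RB1, a chain of the IL-12 and IL-23 receptors (chr19:18093436-18093893), had folds of 4.61 in vehicle, 10.0 in belinostat, 4.35 in AsiDNA and 10.1 in the combination. A region in IL2RB (chr22:37161311-37161901) had 3.63, 8.94, 3.65 and 8.48. A region at 1 start of IL16, a chemoattractant released from a longer precursor (chr15:81297160-81297698), had 3.75, 11.9, 4.23 and 8.89. Regions in IL36RN, IL27RA and IL1R1, at the start of IL12A and at the start of SF3B3 beside IL34 followed.

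The directions were mixed within genes. Of 74 members with a shared region, 32 had at least 1 region ranked higher and at least 1 ranked lower in both lists with belinostat, 23 had higher ones only and 13 lower ones only. IL1R1 had 8 higher and 9 lower among 19. IL16 had 7 higher and 2 lower among 13, and IL19 7 higher and 1 lower among 9. IL6R had 5 higher and none lower among 10, while IL7 had 3 lower and none higher among 6.

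At the starts the shares were not those of all protein-coding genes. Of 46 shared regions at a member's start, 14 (30.4%, 19.1 to 44.8) ranked higher in both lists with belinostat, against 48.2% at the starts of all protein-coding genes, and 13 (28.3%, 17.3 to 42.5) ranked lower, against 15.2%. A higher rank in both lists with AsiDNA was found at 11 (23.9%, 13.9 to 37.9), against 9.85%, and a lower one at 3 (6.52%, 2.24 to 17.5), against 8.83%. Each interval apart from the last leaves the background outside it, but these are intervals for counting error in 1 list per group, and no test of the difference was made. The 11 include a region within 1000 bp of the start of IL4R, the IL-4 and IL-13 receptor. Its ranks were 11.5 in vehicle, 45.7 in belinostat, 47.4 in AsiDNA and 55.5 in the combination. The ranks were 32.2, 47.9, 52.0 and 55.4 at IL12B, 13.7, 27.6, 30.4 and 50.5 at IL19 and 50.1, 57.7, 67.4 and 70.7 at IL15RA. In these 4 the vehicle rank was the lowest, and the lower AsiDNA list stood above belinostat by 1.77 rank points at IL4R, 2.81 at IL19, 4.09 at IL12B and 9.72 at IL15RA. Open ligand starts had less G or C than open starts in general, as given above, and open receptor starts had more. Over all 28 open member starts the medians were 63.2% G or C and 45 nicking sites, against 65.7% and 45. The part of base composition in these shares was not tested.

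AsiDNA was compared with vehicle, and the combination with belinostat. Between vehicle and AsiDNA 63 member regions were gained (12.7%, against 12.2%) and 25 lost (5.02%, against 7.38%). Between belinostat and the combination 43 were gained (8.63%, against 8.02%) and 56 lost (11.2%, against 10.5%), a balance that turned to 33 and 31 at a −log10 q of at least 5 and to 24 and 22 under the margin. Against vehicle, the combination gained 81 (16.3%, against 15%) and lost 50 (10.0%, against 11.8%). Only 3 regions were held by both lists with AsiDNA and neither other list (0.602%, 0.205 to 1.76, against 1.09%), in IL12RB1, IL19 and IL34, with folds of 3.21 to 4.55. Only 2 were held by both lists without AsiDNA (0.402%, 0.110 to 1.45, against 0.789%), in IL15RA and in the flank of IL2RG nearer to FOXO4. Fewer regions thus followed AsiDNA than belinostat on both backgrounds, in the members as in all windows.

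Some regions followed neither drug in a simple way. Both single-drug lists, and neither vehicle nor the combination, held 8 regions (1.61%, against 1.29%), and vehicle and the combination alone held 4 (0.803%, against 0.592%). A region in the body of IL6ST (chr5:55969985-55970449) had no peak in vehicle and folds of 8.51 in belinostat, 6.31 in AsiDNA and 9.70 in the combination. It had the highest percentiles of the 19 member regions held by all lists but vehicle. The peak at the start of IL1RL1 (chr2:102337084-102337356) was missing in the belinostat list and had folds of 7.13 in vehicle, 6.60 in AsiDNA and 4.68 in the combination, while the belinostat list had a peak of its own 753 bp from that start, with a fold of 5.09. IL13, a type 2 cytokine, had 3 regions, each in 1 list, and IL25 had no region in every list either.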

How the data were processed

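Per the labels' protocols, the cells, labelled U87, were fixed with formaldehyde and open DNA was tagged with biotin after nicking. The tools named in the submitters' processing notes are MACS2, deepTools, Bowtie2, Picard, SAMtools and Trim Galore (version 0.5.0), with the build hg38. How they were run, whether an input control served and how libraries were pooled is not given in the sources used here. Fold enrichment, as the authors' peak caller gave it, is a ratio to the local background. Significance was deposited by the authors as −log10 of the p-value and of the q-value. The deposited score is 10 times −log10 q and was not used.

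Peaks on chromosomes 1 to 22 and X were merged into regions by at least 1 bp of overlap. Gene spans come from RefSeq (GRCh38.p14), and windows reach 10 kb beyond them. Starts come from a RefSeq table that held 69 of the 85 members, and either gene end stood in for the other 16. Named regions were the highest by their lowest percentile over the lists holding a peak, up to 8 for each pattern following belinostat, 4 for other patterns and 10 for regions in every list. Every member with a changing start is named. Added after the values were seen were start calls through merged regions and ranks over shared regions, with the regions named from them. Alternatives were a −log10 q of at least 5, lists of equal length, 50% overlap, a margin between present and absent, other windows and the nearest gene. Members, roles and gene lists were chosen with earlier results of these data known. Region patterns were recovered for 100% of 5000 simulated regions. These were spaced apart and the peaks of each covered a common point, so adjacent or split peaks were not checked. For the 239 genes of chromosome 21 a direct search gave the same regions, with 0 exceptions. Python 3.11.15, numpy 2.4.6, pandas 2.3.3, scipy 1.17.1 and matplotlib 3.10.9 were used.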

Additional observations from a re-analysis of the deposited data

Results flagged for a closer look

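Regions that moved opposite ways with a drug with and without the other drug were singled out. Both single-drug lists, and neither vehicle nor the combination, held 8 member regions, so belinostat gained them over vehicle and the combination lost them against AsiDNA. They lay at IL1R1 (2, of which 1 is also in the window of IL1RL2), IL1RAP, IL6ST, IL11, IL17RB, IL17RD and IL26. Vehicle and the combination alone held 4 member regions, at IL1R2 (2), IL13RA1 and IL22. By its lowest percentile, the highest was in IL13RA1, with folds of 5.00 in vehicle and 4.12 in the combination, followed by 1 in IL22 (5.44 and 3.92). The difference was not tested, as each group has 1 list.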

How the results depend on the processing

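No paired analysis was possible because each group has 1 peak list and no value per library, so no result comes from a test, and leaving out a replicate could not be done either. Counts scale with the window. With the gene span alone, 330 member regions remained (980 with 50 kb), of which 21 (67) were in both lists with belinostat only, 17 (47) in both lists without it and 1 (4) in both lists without AsiDNA. With 50 kb, 5 were in both lists with AsiDNA only, and of shared regions 191 ranked higher and 153 lower with belinostat; with the span alone 50 ranked lower. With a margin between present and absent, 16 were in both lists without belinostat only, 1 in both with AsiDNA only and 1 in both without AsiDNA. That last count was also 1 with a −log10 q of at least 5, with 50% overlap and with the nearest gene a member. Under the same margin, regions gained and lost with belinostat over vehicle fell to 57 and 29, and those with AsiDNA over vehicle to 30 and 12. The other 49 comparisons of these counts over all member windows with an alternative stayed within 1.5 times. Of the further counts (single pairs of lists, roles and named starts or regions), 157 comparisons stayed within that range or kept the same lists, and 54 moved. Weak peaks near the threshold of the list can be present or absent by depth alone, which is unknown.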
